A study of Danio rerio with 697 samples.

Results

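The iridophore lineage genes described here were 10 of the 32520 genes in a table of read counts from single zebrafish cells sorted as beta cells. They were chosen from a list of genes known in the iridophore lineage, with earlier results of these data in view, and were located by gene identifier or symbol. All 10 were present in the table. The study asked how beta cells respond to calcium overload. In 3 of the 4 labelled groups the larvae were Tg(ins:TRPV);Tg(ins:Kaede), in which the insulin promoter drives the rat TRPV channel and the Kaede fluorescent protein, and the larvae were exposed to capsaicin (csn), which opens the channel. CSN48-1 and CSN48-2 were 2 sets of wells from larvae with 48 h of csn, begun at 3 and ended at 5 days after fertilization, and the labels do not say how the sets differ. CSN24 larvae had 24 h of csn, begun at 4 and ended at 5 days per the series description. The sources differ on this start, since elsewhere both durations are described as begun at the same age, so it is not settled whether CSN24 larvae were of the age of the others. Ctrl larvae were Tg(ins:Kaede), without TRPV, and had the same 48 h of csn. Cells of pooled larvae came from dissected pancreatic tissue, which the series description calls islets, and were stained with the viability dye calcein and sorted singly into 384-well plates. CSN48-1 and CSN48-2 shared plate 3, CSN24 was on plate 2 and Ctrl on plate 1, so that treatment and plate cannot be told apart.

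Iridophores are the silvery pigment cells of fish. They arise from the neural crest beside the black melanophores and the yellow xanthophores, and their colour comes from stacked platelets of crystalline purine, mainly guanine, so the cell runs purine metabolism at a high rate. In zebrafish, the receptor tyrosine kinase Ltk and the transcription factor Tfec are needed early for the lineage, the Alx homeodomain factors are expressed in it, and pnp4a, which encodes a purine nucleoside phosphorylase, is a widely used marker. Iridophores are not a cell type of the islet.

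The members fell into 3 groups by what they encode. The first held genes for secreted or surface proteins, namely the defensin-like gene defbl1 (ENSDARG00000075161, chr21:21741804-21742991), the apolipoprotein D genes apodb (ENSDARG00000057437, chr24:26306362-26328721) and apoda.1 (ENSDARG00000060345, chr2:37207799-37210397), and lypc (ENSDARG00000097804, chr15:39957809-39963009). The second held pnp4a (ENSDARG00000057575, chr11:24251141-24299538) and gpnmb (ENSDARG00000062688, chr19:20247435-20270207), whose mammalian counterpart is a membrane glycoprotein of melanosomes and lysosomes. The third held the regulators alx4a (ENSDARG00000088332, chr7:26893688-26924903), alx4b (ENSDARG00000074442, chr18:38321039-38364462), ltk (ENSDARG00000042861, chr17:31400584-31483469) and tfec (ENSDARG00000098745, chr4:6032640-6047236). Coordinates are those of the deposited table on GRCz11 and span the whole gene, while the counts came from exons. Exons of pnp4a overlapped those of si:dkey-76p14.2 on the same strand, which had 1 read in the wells described next. A second apolipoprotein D gene (ENSDARG00000060350) overlapped the span of apoda.1 on the other strand, without shared exon bases, and had 2 reads there.

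Of 693 wells with a labelled group, 650 had at least 200 detected genes and at most 40% of their counts on the 13 mitochondrial protein-coding genes, and these are called kept wells. Of these, 329 were CSN48-1 or CSN48-2 wells, called 48-h wells here, 150 were CSN24 wells and the rest were Ctrl wells. The median counts on genes per well were 391116 in CSN48-1, 438450 in CSN48-2, 506870 in CSN24 and 650959 in Ctrl, and the 650 wells ranged from 1486 to 1084018. Just inside the mitochondrial limit lay a well with members at 38.5%, and just outside it another at 40.7%. Since each group was on 1 plate and wells are not replicates, no test was made between groups. Intervals are exact 95% intervals and cover counting error only.

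The members were concentrated in a small number of 48-h wells that had few insulin reads. A well was called an iridophore-gene well when at least 3 of the 10 members had 10 or more reads. There were 33 such wells, all of them 48-h wells. CSN48-1 held 27 of them, 21.43% of its kept wells (Clopper-Pearson interval 14.62 to 29.62%), and CSN48-2 held 6, or 2.96% (interval 1.09 to 6.32%). CSN24 held 0 of 150, which allows a share of up to 2% if 3 wells are taken as the limit of a count of 0, and Ctrl held 0, which allows up to 1.75% by the same limit. The upper ends of the Clopper-Pearson intervals were 2.43% and 2.134%. The rule used the members' own reads, so their presence in these wells is a description and not a finding.

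The iridophore-gene wells had between 3 and 8 members at 10 reads, with a median of 6, and no well had 9 or 10. The 10 members together took between 0.989% and 16.46% of a well's counts, with a median of 8.86%. Just inside the limit, 1 of the 2 wells with 3 members was the shallow well A10 described next, and the other, K11, had 81694 member reads. Just outside it, the 37 kept wells with 2 members had between 24 and 5945, with a median of 49.

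The insulin gene ins, which defines beta cells, had between 89 and 714 reads in the iridophore-gene wells, with a median of 280. In 48-h ins-high wells, defined as the other kept wells with ins at or above 10000 CPM (counts on a gene per 1000000 counts on all genes), the median was 46430 ins reads. That gap follows from the definition and is no check of the name. Few ins reads were not particular to the iridophore-gene wells. The 61 kept wells of neither kind had a median of 313 ins reads. In 3 CSN48-1 iridophore-gene wells, A10, F06 and F16, ins nevertheless exceeded 10000 CPM. These 3 were shallow, with 6611, 17705 and 4624 counts, and their ins reads, at most 306, lay within the range of the other 30. Most members were thus present without ins at the level of the ins-high wells, while ltk and tfec, the genes needed early in the lineage, were at 0 reads in most of these wells.

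defbl1 was the most abundant member. It had 10 or more reads in all 33 wells, with a lowest value of 74, a median of 17040 and a highest value of 63024 reads, and it led the members in 29 wells. Pooled over the wells, it took 56192 CPM (exact Poisson interval 56065 to 56319) and was the most abundant gene outside the mitochondrial chromosome. The 6 CSN48-2 wells held 52990 reads in G24, 13753 in H14, 7450 in I21, 55749 in I24, 54568 in K11 and 15281 in K22. They all lay within the CSN48-1 range of 74 to 63024.

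apodb followed, also in 33 of 33 wells, with between 27 and 21951 reads and a median of 7322. Its pooled level was 20082 CPM, and it exceeded defbl1 in the remaining 4 wells. In well C20, for example, apodb had 9788 reads and defbl1 5179. lypc was found in 32 wells, with a median level of 5341 CPM and a highest value of 8324 reads. The exception was CSN48-2 well K11, which had 0 lypc reads of 736827 counts while it held 54568 reads on defbl1, 17493 on apodb and 9633 on gpnmb. Those 3 genes were the only members present in K11.

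gpnmb and pnp4a were present in most wells but varied far more. gpnmb reached 10 reads in 26 wells, with a median of 978 over all 33 and a highest value of 9633 reads. pnp4a reached 10 reads in 25 wells, with a median of 317 and a highest value of 6516 reads. Their levels were little related over the wells (on the log2(CPM + 1) scale, Pearson r -0.14 and Spearman rho 0.01, n = 33). Well B04 had 9316 gpnmb reads and 1 pnp4a read, C22 had 6174 and 2, whereas B08 had 7 gpnmb reads and 2751 pnp4a reads. Both genes were present in 19 wells, gpnmb alone in 7 and pnp4a alone in 6.

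pnp4a was also the member whose pooled level differed most between the 48-h sets among those found in both sets, with 3283 CPM in CSN48-1 and 927 CPM in CSN48-2. In CSN48-2, a single well (G24, 1726 reads) supplied 63.8% of the pnp4a reads. For gpnmb the pooled levels were 3393 CPM in CSN48-1 and 5416 CPM in CSN48-2, where well K11 supplied 60.9% of the reads. The CSN48-2 values come from 6 wells.

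apoda.1 was either well expressed or nearly absent. In 17 wells it had at least 100 reads, the highest being 3934 in D16, and no well had between 10 and 99. The other 16 wells had between 0 and 6 reads. In those 17 wells, its level was 207.7 CPM at the lowest, with a median of 971 CPM.

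**Figure D1:**
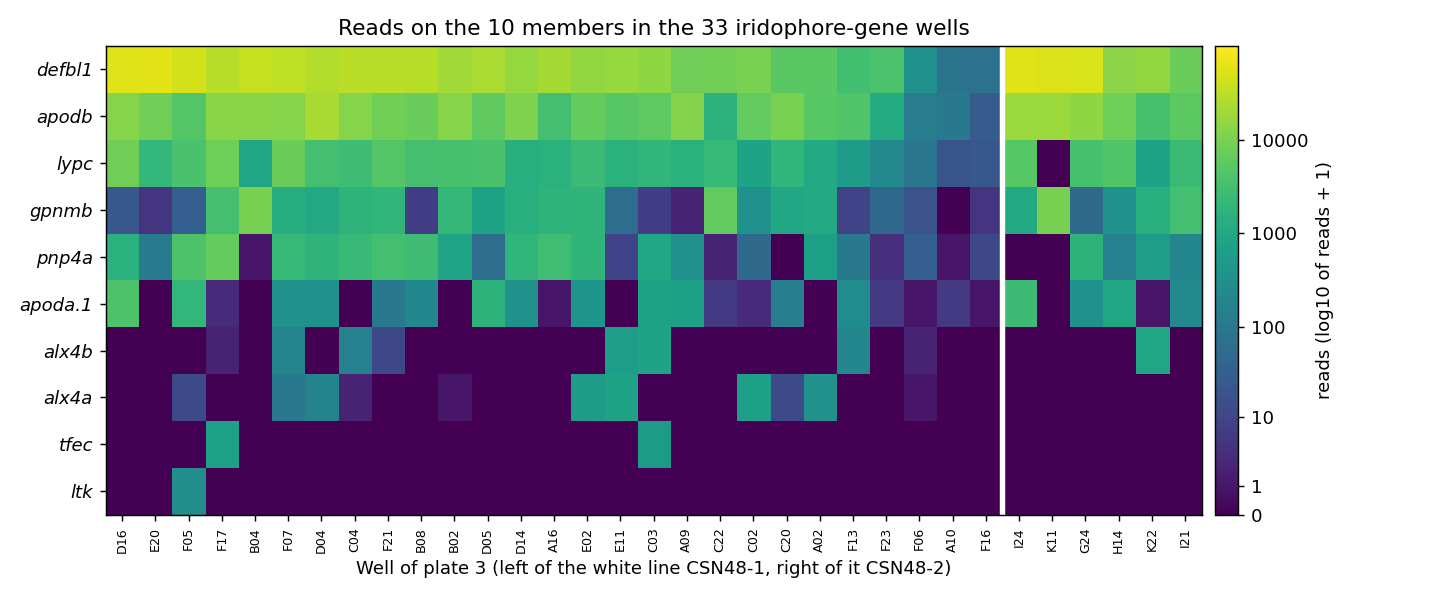
Reads on each of the 10 members (rows, ordered by pooled level) in each of the 33 iridophore-gene wells (columns, ordered within each set by summed member reads), on a log10 colour scale of reads plus 1. The upper 3 rows are filled in nearly every well, gpnmb, pnp4a and apoda.1 have gaps, and the 4 regulators are at 0 in most wells.

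The regulators were sparse. alx4a had 10 or more reads in 8 wells, with at most 782 reads, and alx4b in 7 wells, with at most 929. All 8 alx4a wells were CSN48-1. In the 6 CSN48-2 wells alx4a was at 0 reads, which allows up to 1.03 CPM, and alx4b was found in K22 alone, with 929 reads. Each Alx gene was held by few wells, so few shared wells can be expected, and no avoidance is read from their number. In C03 alx4b had 772 reads and alx4a 0, and in A02 alx4a had 330 and alx4b 0. Both passed 10 reads in 2 wells, E11 (782 alx4a and 631 alx4b reads) and F07, and both had at least 1 read in 4 wells.

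tfec was found in C03 (531 reads) and F17 (712 reads) and was at 0 in the other 31 wells. ltk was found in F05 alone, with 299 reads, and was at 0 in the other 32. Thus 14 of the 33 wells held at least 1 of the 4 regulators and 19 held none. In a library made from 1 cell, a transcript that is absent and one that was missed cannot be told apart. alx1, a related homeobox gene that is not a member, had 10 or more reads in 7 wells, of which 4 also held alx4a or alx4b.

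Most members were seen together, which is a description, since the rule asks for at least 3 members in each of these wells. Of the 45 pairs, 42 occurred in at least 1 iridophore-gene well. The 3 that did not were tfec with alx4a, tfec with ltk, and alx4b with ltk, each a pair of genes held by 1 to 8 wells. defbl1, apodb and lypc occurred together in 32 wells. Of these, 19 also held gpnmb and pnp4a, and 11 held apoda.1 as well. The 33 wells showed 19 different combinations, and 11 combinations were seen in a single well. The most frequent one, in 6 wells, was defbl1, apodb, lypc, gpnmb, pnp4a and apoda.1 without any regulator.

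Outside the iridophore-gene wells, the rule leaves at most 2 members at 10 reads in a well. Over all kept wells, 70 held apodb at 10 reads, 68 of them together with defbl1. The 33 iridophore-gene wells were 47.1% of the wells with apodb and 16.92% of those with defbl1. For lypc, by contrast, 32 of 33 wells were iridophore-gene wells, for gpnmb 26 of 26, for pnp4a 25 of 26, for apoda.1 17 of 18, for alx4a 8 of 8 and for alx4b 7 of 7. Measured in reads rather than wells, the members other than lypc and tfec were similarly concentrated, with between 93.4% and 99.4% of their reads in the 33 wells. lypc had 92.99% and tfec 79.2% there, the rest lying mostly in 1 well each.

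**Figure D2:**
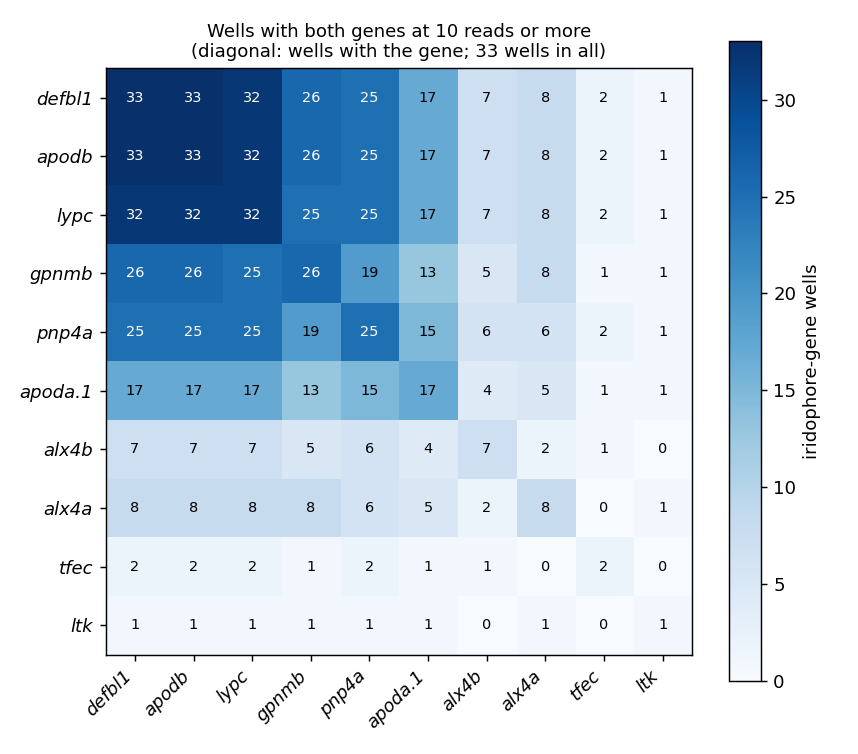
Number of iridophore-gene wells in which both the row gene and the column gene had 10 or more reads, with the number for each gene alone on the diagonal (33 wells in all). defbl1, apodb and lypc share 32 wells, gpnmb and pnp4a share 19, and alx4a and alx4b share 2.

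Within the 33 wells, the members' levels were weakly related to one another. On the log2(CPM + 1) scale, defbl1 and apodb had a Pearson r of 0.51 and a Spearman rho of 0.40, and lypc and pnp4a had 0.50 and 0.43. lypc and apoda.1 had an r of 0.41 and a rho of 0.48. The most negative pair was gpnmb and apoda.1, with an r of -0.36 and a rho of -0.43. These are descriptions over wells that share a plate and a total of counts that sums over all genes, and 28 pairs were computed.

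The order of the members by pooled CPM was defbl1, apodb, lypc, gpnmb, pnp4a, apoda.1, alx4b, alx4a, tfec and ltk. Levels of different genes can be compared only per length, so the order was also taken as CPM per kilobase of exon. On that scale defbl1 had 64887, apodb 18964 and lypc 6229 CPM per kb, and these 3 kept their places. apoda.1, with 1371 CPM per kb, moved to the fourth place, since its exons span 853 bases against 4524 for pnp4a and 6477 for gpnmb. pnp4a (612 CPM per kb) and gpnmb (592 CPM per kb) followed, then alx4b (106.04), tfec (65.8), alx4a (40.3) and ltk (4.67 CPM per kb).

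Not every step in the order held from well to well. Per kilobase, defbl1 exceeded apodb in 29 of 33 wells and apodb exceeded lypc in 32. lypc exceeded apoda.1 in 32 wells, with 1 well at 0 for both. apoda.1 and pnp4a were each the higher in 16 wells, and pnp4a exceeded gpnmb in 19 wells and lay below it in 14, so that the order of these 3 was not settled by the wells. gpnmb exceeded alx4b in 28 wells. The places of alx4b, tfec, alx4a and ltk rested on few wells, since each was at 0 in most.

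In ins-high wells the members' medians lay between 0 and 17 reads per well. There were 556 ins-high wells, 260 of them with 48 h of csn in TRPV larvae, of which 77 were CSN48-1. defbl1 had a median of 17 reads per well in CSN48-1 (range 0 to 70), 4 in CSN48-2 (0 to 1588), 0 in CSN24 (0 to 1066) and 2 in Ctrl (0 to 54). apodb had medians of 6, 2, 0 and 1 reads in the same order of groups, and its highest value in any ins-high well was 34 reads. For gpnmb, pnp4a, alx4a, alx4b and tfec, no ins-high well reached 10 reads.

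Pooled over wells, the defbl1 level in ins-high wells was 49.9 CPM in CSN48-1, 34.5 in CSN48-2, 16.8 in CSN24 and 9.27 CPM in Ctrl. Without the well that had the most defbl1 reads in each group, it was 48.4, 14.7, 1.52 and 8.80 CPM. The CSN24 and CSN48-2 values thus rested on 1 well each, namely E03 of plate 2 (1066 of 1172 reads) and G16 of plate 3 (1588 of 2758 reads). Against 56192 CPM in the iridophore-gene wells, these levels were lower by 3 orders of magnitude or more in every group.

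Reads on a member were nevertheless frequent in ins-high wells. At least 1 defbl1 read was present in 98.7% of CSN48-1, 82.5% of CSN48-2, 28.6% of CSN24 and 69.3% of Ctrl ins-high wells. Thinned to 50000 counts a well, which left out 13, 17, 2 and 0 shallower wells, the shares were 73.4%, 36.7%, 9.16% and 27.6%, against 100% in the 30 iridophore-gene wells deep enough to be thinned. The median depths of the 4 ins-high groups were 401079, 439233, 516825 and 660472 counts. The members were chosen as iridophore lineage genes, and no expression in beta cells is read from a share that rests on 1 or a few reads per well. Where these reads come from was not tested.

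Whether the levels of the 2 kinds of well overlapped differed with depth. Among wells with 50000 counts or more, all 30 iridophore-gene wells were above all 524 ins-high wells for defbl1 (lowest 7166 CPM, against a highest value of 4537 CPM) and for apodb (lowest 2212 CPM, against a highest value of 73.7 CPM). For the other members not all 30 were. The wells above all ins-high wells were 29 for lypc, 27 for gpnmb, 24 for pnp4a and 8 for apoda.1. They were 8 for alx4a, 7 for alx4b, 2 for tfec and 1 for ltk. The wells were chosen by reads on the members, so this separation is partly fixed, and it was not taken for all genes. Some shallow ins-high wells reached higher CPM values from few reads. The 30 ins-high 48-h wells under 50000 counts had between 0 and 55 defbl1 reads but up to 13595 CPM. Their ins reads were between 92 and 1152, at or near the range of the iridophore-gene wells, so they were ins-high in CPM but not in reads.

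**Figure D3:**
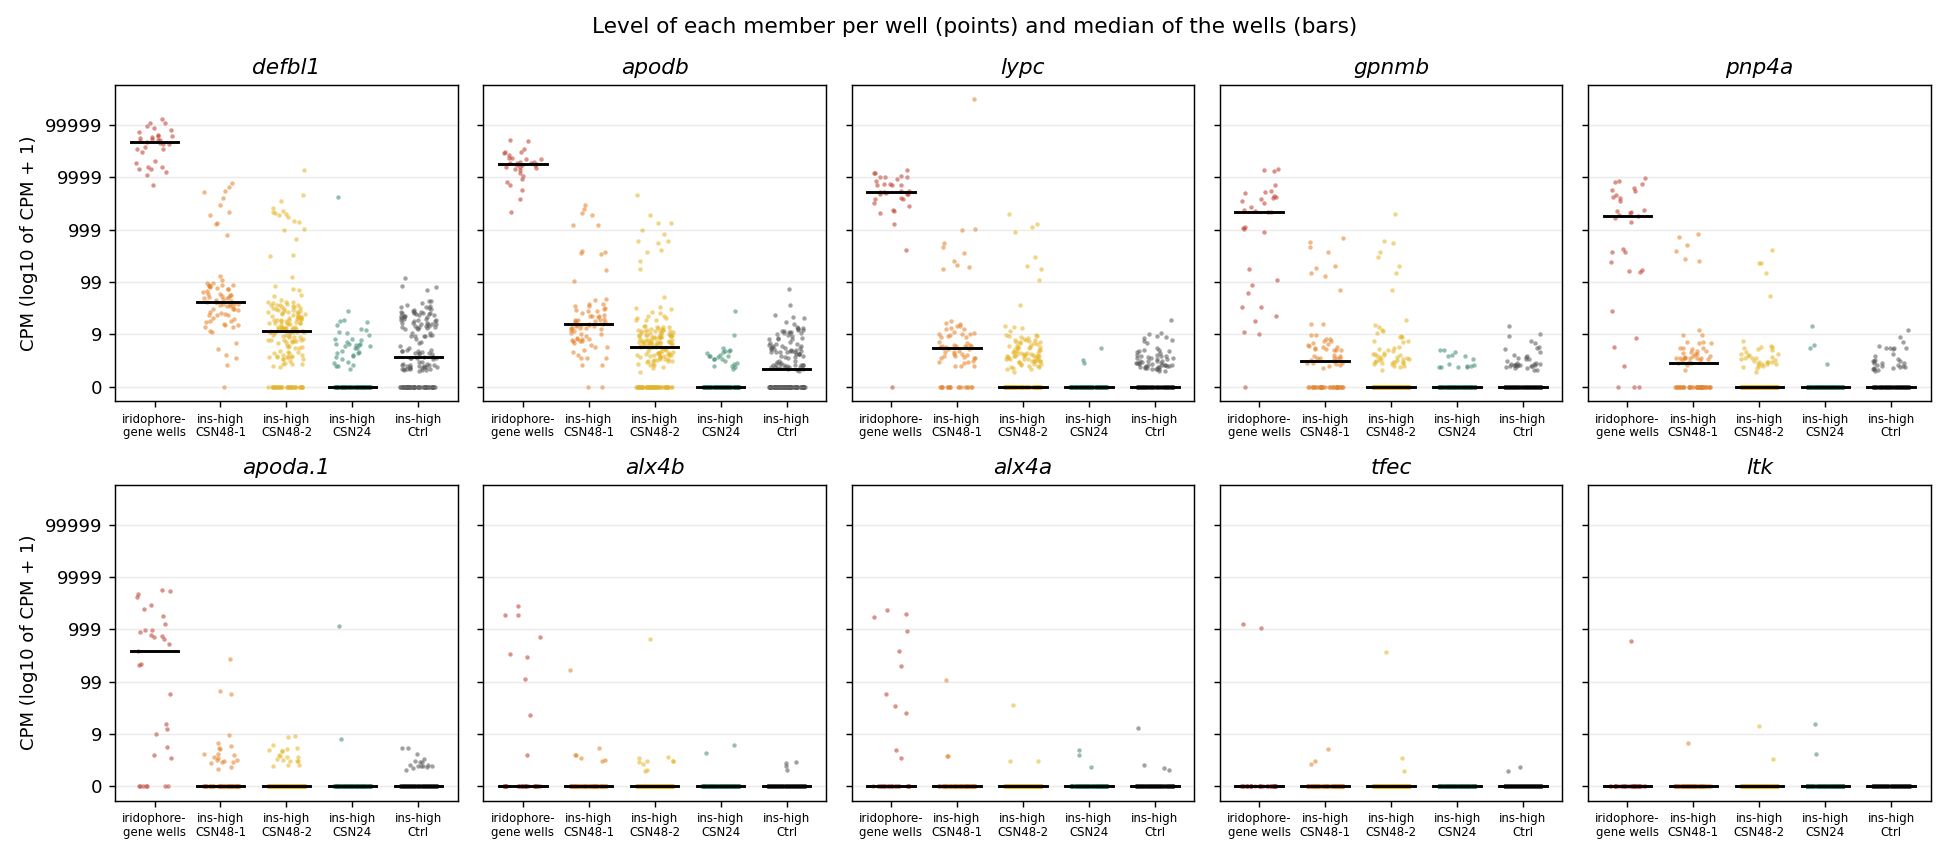
Level of each member per well (points, CPM plus 1 on a log10 axis labelled in CPM) and the median of the wells (bars), in the iridophore-gene wells and in the ins-high wells of CSN48-1, CSN48-2, CSN24 and Ctrl. For the first 6 genes the median of the iridophore-gene wells lies far above those of all ins-high groups, and for alx4b, alx4a, tfec and ltk every median is 0.

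4 kept wells that did not reach 3 members held 100 or more reads on at least 1 of them. E03 of CSN24, an ins-high well with 8448 ins reads, had 1066 defbl1 and 291 apoda.1 reads. G16 of CSN48-2, with 23993 ins reads, had 1588 defbl1 reads and 6 on all other members. E12 of CSN48-1 had 5917 lypc reads among 18987 counts, or 311634 CPM, beside 237 ins reads and 28 reads on the other members. B14 of CSN48-1, with 291 ins reads and hence not ins-high, had 315 tfec reads and 22 on the other members. In E03 and G16, members were thus seen beside ins within the range of other ins-high wells. Both lay below the median ins reads of their groups, 61663 in CSN24 and 42689 in CSN48-2 ins-high wells. The mitochondrial shares of E03 and G16, 34.9% and 37.6%, were near the limit of 40%.

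The make-up of the member reads was compared between iridophore-gene and ins-high wells, leaving out ins-high wells with 100 or more reads on a member, a limit chosen after seeing the data. The intervals treat each read as a separate draw and do not cover the spread between wells. Whether an interval includes a share thus does not decide if the make-up was alike. Of 1218908 member reads in the iridophore-gene wells, 61.8% fell on defbl1, 22.1% on apodb, 6.98% on lypc, 4.22% on gpnmb, 3.05% on pnp4a and 1.29% on apoda.1. In CSN48-1 ins-high wells left after that limit, 2329 reads were split as 61.1, 22.5, 6.83, 4.04, 3.65 and 1.25% over the same genes, and the interval of each of the 6 included the share in the iridophore-gene wells. In CSN48-2 the split of 2015 reads was 58.1, 24.4, 7.79, 5.11, 2.18 and 1.39%. Here the intervals for defbl1 (55.9 to 60.2%), apodb (22.5 to 26.3%) and pnp4a (1.59 to 2.92%) did not include the shares in the iridophore-gene wells. Nor did those of 2 regulators with few reads. alx4b, with 10 reads, had 0.238 to 0.911% against 0.237%. ltk, with 6 reads, had 0.109 to 0.647% against 0.0245%, and 5 of the 6 reads lay in 1 well. In Ctrl, where no iridophore-gene well was found, 1589 reads were split as 61.99, 21.6, 6.99, 3.71, 3.40 and 1.196%. The interval of each of these 6 included the share in the iridophore-gene wells, that of defbl1 being 59.6 to 64.4%. The Ctrl interval of alx4a, with 11 reads, was 0.346 to 1.24% and did not include its 0.218% there. CSN24 had 190 reads, of which lypc took 1.58% (interval 0.327 to 4.54%), gpnmb 8.95% (5.30 to 13.9%) and ltk 5.79% (2.93 to 10.12%), and these 3 intervals did not include the shares in the iridophore-gene wells. 10 of the 11 ltk reads lay in 1 well. With no ins-high well left out, the make-up was another one. CSN48-1 then had 17.5% of its member reads on defbl1 and 73.4% on lypc, CSN48-2 had 76.4% on defbl1, and CSN24 had 75.7% on defbl1 and 19.186% on apoda.1, while Ctrl held no such well.

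**Figure D4:**
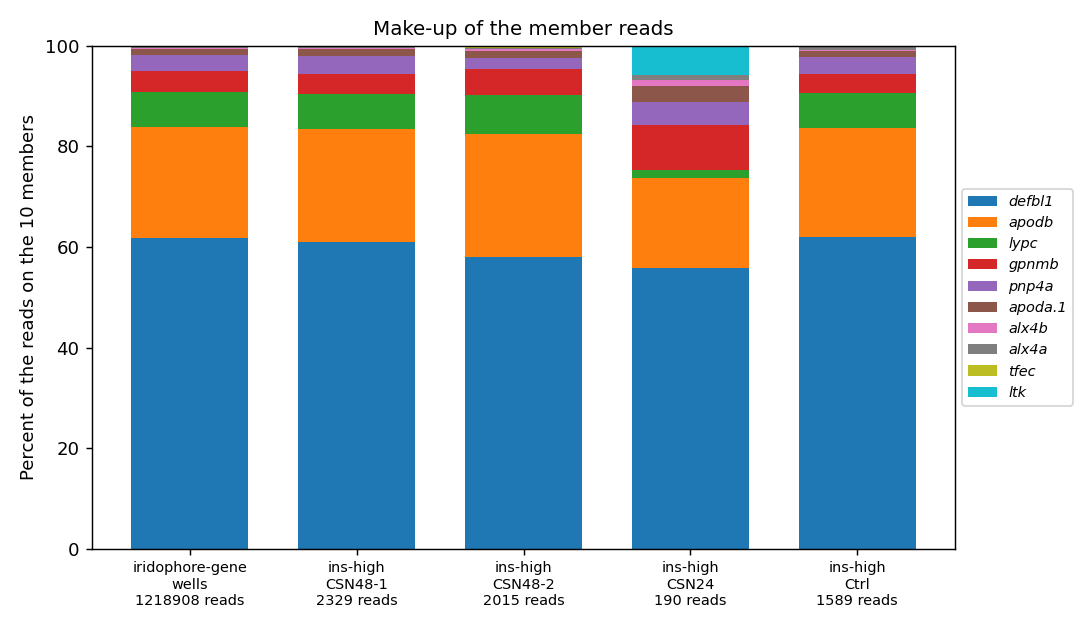
Share of each member in the summed reads of the 10 members (percent, stacked), for the iridophore-gene wells and for the ins-high wells of CSN48-1, CSN48-2, CSN24 and Ctrl, leaving out ins-high wells with 100 or more reads on a member. defbl1 makes up 61.8% in the iridophore-gene wells, 61.1% in CSN48-1, 58.1% in CSN48-2, 55.8% in CSN24 and 61.99% in Ctrl.

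Stated as a ratio, the pooled level of defbl1, apodb, lypc, gpnmb, pnp4a and apoda.1 in the iridophore-gene wells was between 5450 and 6903 times that in Ctrl ins-high wells. Against CSN48-1 ins-high wells, leaving out for each gene the ins-high well with the most reads on it, the 6 ratios lay between 1043 and 1289. Against CSN48-2, left out the same way, they lay between 3147 and 5246. Against CSN24, left out the same way, the ratios were 36862 for defbl1, 44987 for apodb, 17666 for gpnmb and 13552 for apoda.1. With no well left out, pnp4a was 21481 times higher and lypc, with 3 reads in CSN24, at least 147665-fold higher, with 3 counts over the group as the limit.

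The ins-high wells of each treatment were then compared with those of Ctrl. Folds were taken as the log2 ratio of pooled CPM plus 1, which understates the change of low genes, with genes at 10 or more counts in all. Of the 8 members tested, 1 was past 4-fold higher in 48-h ins-high wells than in Ctrl ins-high wells, where 18.4% of 14904 genes tested were past it. That member was lypc (log2 ratio 4.83), and without the well with the most lypc reads in each group no member was past 4-fold. defbl1 had a log2 ratio of 1.95 and apodb of 1.29. The median over all 10 members was 0.46, against 0.15 over all genes tested. The 10 include tfec and ltk, which had too few counts to be tested, so the 2 medians are over unlike sets.

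Taken apart, the 48-h sets gave other counts. In CSN48-1 alone, lypc (6.69), defbl1 (2.31) and apodb (2.172) were past 4-fold higher than in Ctrl, with 15.7% of 11634 genes past it. Well E12 supplied 5917 of the 6076 lypc reads, and without it lypc was at 5.49 CPM in CSN48-1, against 1.04 CPM in Ctrl, its log2 ratio was 1.67, and defbl1 and apodb were the 2 members past 4-fold. In CSN48-2 alone no member was past 4-fold, with 17.6% of 13830 genes past it, and the ratios were 1.79 for defbl1 and 0.76 for apodb. In CSN24 ins-high wells, 1 member was past 4-fold in either direction, as were 38.8% of 12120 genes, 1831 of them higher. It was apoda.1, which was higher than in Ctrl (2.16), and well E03 supplied 291 of its 297 reads. apodb and lypc had log2 ratios of -1.51 and -0.97 in CSN24 over Ctrl. No member tested was past 4-fold lower in any of these comparisons. With 1 CPM added, only defbl1 (9.27 CPM) and apodb (3.24 CPM) had a Ctrl level that allowed it. Genes past 4-fold lower were 1830 of 14904 in the 48-h comparison and 3075 of 11634 in CSN48-1. They were 2140 of 13830 in CSN48-2 and 2875 of 12120 in CSN24. All of these comparisons share the Ctrl wells.

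The position of a well on plate 3 moved with its member reads. Rows A to F held CSN48-1, with 1 CSN48-2 well in row F, and rows G to P held CSN48-2. In kept wells without 3 members and with under 100 reads on each member, the mean member reads per well ranged from 18.4 to 51.2 over rows A to F and from 3 to 17 over rows G to P. Over the 16 rows, this mean followed the summed member reads of the wells with 3 or more members in the same row, those over the mitochondrial limit included, with a Pearson r of 0.90 and a Spearman rho of 0.92. Over the 24 columns the values were 0.88 and 0.86. The row values include the difference between the 2 sets, and none was taken within a set. These r and rho values thus do not separate the parts of row and set. Within rows A to F the means were 24.3, 33.1, 18.4, 32.1, 25.6 and 51.2. The summed reads there were 84546, 148375, 129051, 205401, 128169 and 242198. Within rows G to K the means were 12.3, 10.7, 13, 9.5 and 17, beside 80970, 61488, 101258, 7219 and 104230 reads. Rows L to P had 0 such reads and means between 3 and 11.1. Row F had the most of each, with 242198 member reads in 8 such wells and 51.2 reads per well in the others.

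Wells beside those wells also had more member reads. In CSN48-1, ins-high wells that touched a well with 3 or more members had a median of 30 member reads (n = 60), against 14 in those that did not (n = 16). In CSN48-2 the medians were 11 in those that did (n = 51) and 8 in those that did not. CSN48-2 ins-high wells in a row with such a well also had a median of 11 (n = 86), against 6 in rows without (n = 96). All 76 CSN48-1 ins-high wells compared lay in rows with such a well. Whether touching adds to the row was not tested. On plate 1, which held the Ctrl wells and no well with 3 members, mean member reads per well were 19.1 in row F, 16.92 in row B and 1.04 in row C, and over its 8 rows they had an r of 0.75 and a rho of 0.74 with the reads of the same rows of plate 3. Over its columns the values were -0.08 and -0.06. On plate 2, which held CSN24, the same comparison gave an r of 0.30 and a rho of 0 over 7 rows, and 0.14 and 0.31 over the columns. Wells of a row or column share a plate and are not independent, and what links the positions was not tested.

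**Figure D5:**
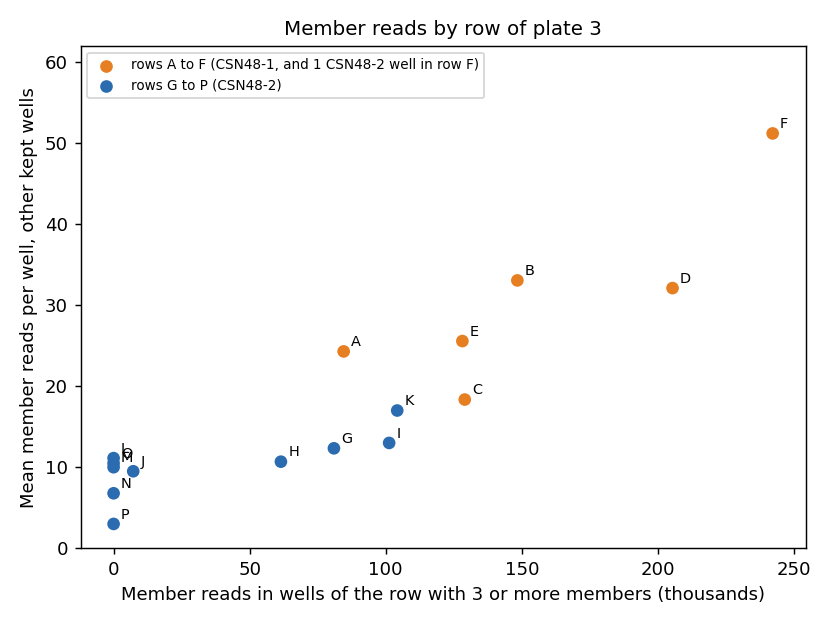
Mean reads on the 10 members per kept well without 3 members and with under 100 reads on each member (y axis), against the summed member reads, in units of 1000 reads, of the wells with 3 or more members in the same row (x axis), for the 16 rows of plate 3. Rows A to F range from 18.4 to 51.2 reads per well and rows G to P from 3 to 17.

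Genes that are not members but belong to pigment cells were compared between iridophore-gene wells and 48-h ins-high wells. All 10 members were past 4-fold higher in iridophore-gene wells, beside 12.6% of the 13412 genes tested (33.3% were past 4-fold lower), a count that the choice of wells fixes. Since the wells were chosen by pigment-cell genes, the other lists are likewise given as descriptions.

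Of 16 other iridophore genes listed, 15 were matched and 8 had enough counts. Of these 8, 6 were past 4-fold higher and 1 lower. akr1b1, an aldo-keto reductase, had 1111 CPM in iridophore-gene wells against 17.7 CPM in 48-h ins-high wells and reached 10 reads in 14 of 33 wells. slc25a36a, a mitochondrial nucleotide carrier, had 494 against 25.4 CPM (18 wells). prdx1, a peroxiredoxin, had 261 against 4.22 CPM (5 wells), and alx1 had 147.4 against 0.0275 CPM (7 wells). tjp1a and cdk15 were also past 4-fold higher, but 98.3% and 91.7% of their reads lay in 1 well each. The gene past 4-fold lower was mpv17, with 0 reads against 39.8 CPM in 48-h ins-high wells. It reached 10 reads in only 5 of those 260 wells, so 0 reads in 33 wells says little. 7 of the 15 genes had 0 reads in the iridophore-gene wells.

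The lists of the other pigment cells had few reads. Of 6 melanophore genes tested, 3 were past 4-fold higher and 1 was lower. The lower one was slc45a2, with 0.224 CPM against 20.5 CPM in 48-h ins-high wells, where it reached 10 reads in 6 of 260 wells. The 3 higher genes each rested on few wells. rab38, a small GTPase, had 10 reads in 4 wells. dct, an enzyme of melanin synthesis, and slc24a5, an ion exchanger, had 10 reads in 1 well each, and trpm1b, at 2.01 CPM, in 1 well. mitfa, the master regulator of melanophores, had 0 reads, as did tyr, pmela and tyrp1b. Of 8 xanthophore genes tested, 1 was past 4-fold higher, aox5, with 99.7% of its reads in 1 well, and 3 were lower. The 3 lower genes reached 10 reads in between 1 and 10 of the 260 48-h ins-high wells. mycbp2 had 74.9 against 67.7 CPM, mycl 5.59 against 20.29 CPM, and pax7b and xdh 1 read each in the iridophore-gene wells. Of 7 neural crest and progenitor genes tested, 2 were past 4-fold higher and 1 lower, which reached 10 reads in 1 ins-high well with 48 h of csn. sox10, needed for all neural crest pigment cells, had 402 against 0.688 CPM and passed 10 reads in 4 wells, and foxd3 had 36.03 CPM, 99.8% of it in 1 well. crestin and snai1b had 1 read each.

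In the list for de novo purine synthesis, the pathway that supplies the platelets, 6 of 11 genes tested were past 4-fold higher and 1 was lower, beside the 12.6% higher and 33.3% lower of all genes tested. Their median log2 ratio was 2.51 against -0.68 over all genes tested. The 6 rested on few wells, since they reached 10 reads in between 1 and 10 of the 33 wells. The lower gene reached 10 reads in 4 of the 260 48-h ins-high wells. Of the ligands of Ltk, alkal1 and alkal2b had 0 reads in the iridophore-gene wells and alkal2a had 1.

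The genes most like the members were taken as those with the highest Pearson r, over the 329 kept 48-h wells, between their log2(CPM + 1) and that of the summed members, among 2115 genes with 10 reads in at least 10 wells. They were anxa5b (r = 0.92), marcksl1b (0.88), crip1 (0.87), uraha (0.85), cd9b (0.80), anxa4 (0.78), s100v2 (0.77), aqp1a.1 (0.76), ENSDARG00000089441 (0.75) and ENSDARG00000092240 (0.72). These r values include the gap between the iridophore-gene wells, chosen by the members, and the other wells. Within the 33 wells alone, r was 0.29, 0.60, 0.50, 0.79, -0.21, 0.68, 0.21, -0.27, 0.15 and 0.32 in the same order of genes. Likeness over the 329 wells thus does not mean that a gene followed the members within the 33. anxa5b and anxa4 encode annexins, marcksl1b a MARCKS-like protein, uraha an enzyme of urate breakdown, cd9b a tetraspanin, s100v2 an S100 protein and aqp1a.1 a water channel. anxa5b, marcksl1b, crip1 and anxa4 passed 10 reads in all 33 iridophore-gene wells, at 20515, 39144, 8407 and 9613 CPM, against 18.6, 140.9, 6.397 and 112.6 CPM in 48-h ins-high wells. By the same measure the members themselves had r values of 0.98 for defbl1, 0.94 for apodb and 0.87 for lypc. gpnmb had 0.78, pnp4a 0.74 and apoda.1 0.63, and the 4 regulators passed 10 reads in too few wells to be ranked. The summed level contains each member, so the members' values are partly fixed by the measure and cannot be set beside those of other genes. In the iridophore-gene wells, defbl1 and apodb made up 61.8% and 22.1% of the summed reads.

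Markers of other cell types were read in the same wells. Of the 10 beta genes matched, 0 were past 4-fold higher and 7 were lower. ins had 712 CPM against 123617 CPM in 48-h ins-high wells, and pdx1, a beta-cell transcription factor, 30.4 against 5484 CPM. The summed level of the beta list ranged from 214.7 to 69204 CPM in iridophore-gene wells, the upper end being the 3 shallow wells, and from 12497 to 322125 CPM in ins-high wells. The most abundant alpha and delta genes, gcga and sst2, had 22.9 against 4645 CPM and 106.7 against 11760 CPM. Of the acinar genes, prss59.1 was the most abundant, with 12 reads in all 33 wells together.

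The duct list went the other way. Its 3 tested genes, anxa4, krt8 and krt18a.1, were past 4-fold higher, and its summed level ranged from 424 to 35552 CPM in iridophore-gene wells, against 0 to 8059 CPM in 48-h ins-high wells. anxa4 supplied most of it and passed 10 reads in 33 of 33 wells, krt8 in 19 and krt18a.1 in 3. cftr, which marks duct cells, and her15.1 had 0 reads in the 33 wells. Whether duct cells or their RNA have a part in these wells was not tested.

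Other marker lists had little. The most abundant genes of the endothelial, muscle and hepatocyte lists, kdrl, acta1b and apoa2, each passed 10 reads in 1 well alone. lum of the fibroblast list had 10 reads in 5 wells. plp1b of the Schwann list, zap70 of the T-cell list, npsn of the neutrophil list, mfap4 of the macrophage list, and hbae1.1 and cyt1l of the erythrocyte and epidermis lists had between 1 and 6 reads in all 33 wells together.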

How the data were processed

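Single calcein-stained Kaede cells were sequenced by Smart-seq2. The deposited values are raw read counts per gene and well, made by the authors with bcl2fastq 2.19.1, GSNAP 2019-06-10 and featureCounts 2.0.1 per the submitters' processing notes, on GRCz11 with Ensembl 95 annotation. Whether the counting used strand is not given in the sources used here. The 92 spike-ins were left out of totals, and 4 wells without a group entered no comparison. Wells took their group from their titles. Counts were pooled over wells and scaled to CPM with Python 3.11.15, numpy 2.4.6, pandas 2.3.3 and scipy 1.17.1, and figures were drawn with matplotlib 3.10.9. Levels carry exact Poisson and shares Clopper-Pearson 95% intervals. Thinning drew 50000 counts a well without replacement (seed 1). The procedures for folds and for the genes most like the members were tested on simulated data, and the thinning was not. Folds needed 10 counts. Smart-seq2 reads carry no molecular identifiers, and reads per gene grow with length. Wells are not replicates, so no test was made.

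The members and gene lists were chosen with earlier results of these data known. Of 184 list genes, 157 were matched to the table by identifier, symbol or the study's own names. Genes named are the 10 members, the 10 most like them, the 4 most abundant genes of each pigment list, ins, pdx1 and the most abundant gene of each other list. Tied genes, members of the duct list, tjp1a, cdk15, slc45a2 and genes at 0 reads were named after their values were seen. Alternatives changed the limits on members, reads, ins, genes and depth, the denominator, the constant added, and the wells or set left out.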

Additional observations from a re-analysis of the deposited data

Results flagged for a closer look

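Signal on the members was also present in wells that entered no comparison. Among labelled wells over 40% mitochondrial counts, 10 held 3 or more members at 10 reads, 3 of them CSN48-1 and 7 CSN48-2, with mitochondrial shares between 40.7% and 81.7%. Their pooled levels were 8094 CPM for defbl1, 6607 for apodb, 1775 for lypc, 986 for gpnmb, 712 for pnp4a and 143.7 CPM for apoda.1. tfec and ltk were at 0 reads in these wells. With them, wells with 3 or more members were 13 of the CSN48-2 wells (5.83%, interval 3.14 to 9.76%) and 30 of the CSN48-1 wells (20.98%, interval 14.62 to 28.57%) before any limit on wells.

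Of the wells without a labelled group, the well NC_01_H18 had 5 defbl1 reads, RNA_02_G11 had 6 gpnmb reads and RNA_03_P18 had 4 gpnmb reads. Each is above the limit of 3 reads that a count of 0 allows, and no member reached 10 reads in any of the 4 wells.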

How the results depend on the processing

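The 33 iridophore-gene wells became 70 when 2 members were enough, 60 at 5 reads and 6 without CSN48-1, and lay between 26 and 43 under the other settings. The members' summed level in them, 90924 CPM, was 83021 as a mean of wells, 89367 without the top well, 123978 without the mitochondrial chromosome in the denominator, 104697 without CSN48-1 and 87089 without CSN48-2. Ranked per kilobase, 6 of 10 members kept their place.

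In ins-high wells, the summed log2 ratio of 48-h over Ctrl wells, 2.79, was 1.82 with ins at 50000 CPM, 2.92 without the mitochondrial chromosome and ins in the denominator, 1.78 with 1000 detected genes, 1.88 without the top well of each group, 4.17 for CSN48-1 alone and 1.53 for CSN48-2 alone. With 2000 ins reads it was 1.61, without wells with 100 reads on a member 1.36, and for CSN48-1 alone without such wells 2.35, 3 settings chosen after seeing the data. Members past 4-fold higher, 1 in all, were not counted with the changed denominator. Under the other settings named here they were 0, with 2 exceptions. They were 3 for CSN48-1 alone, and 2 for CSN48-1 alone without wells with 100 reads on a member. For CSN24 over Ctrl the summed ratio, 0.54, was -2.05 with ins at 50000 CPM, 0.66 with the changed denominator, 1.02 with 1000 detected genes, -2.10 without wells with 100 reads on a member and -2.01 without the top well. In the first and the last 2 of these no member was past 4-fold higher (0, against 1), and the apoda.1 ratio, 2.16, was -0.0601 with ins at 50000 CPM, -0.12 without wells with 100 reads on a member, and -0.0842 without the top well. All of these settings leave out well E03, which had 33434 CPM of ins. In the 48-h comparison, well E12 had 12482 CPM of ins, 947 detected genes and 237 ins reads. It was left out with ins at 50000 CPM, with 1000 detected genes and with 2000 ins reads. What else moves the ratios under these settings was not tested.

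Of the 10 genes most like the members, 4 were shared when ranked in iridophore-gene wells alone. With 10 CPM added in place of 1, melanophore genes past 4-fold higher were 1 in place of 3, and xanthophore genes 0 in place of 1. Among 396 levels of single members in ins-high wells, 98 moved by more than their interval, and among 190 single log2 ratios 62 moved and 3 reversed. No paired analysis was possible because the results come from no test. Depth limits the levels, since 1 read in a well of median depth is a level of a few CPM, and shallow wells reach high CPM from few reads.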

Other observations

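The 4 wells without a labelled group had few ins reads, with 314 in NC_01_H18 and 242 in RNA_02_G11 as the highest values, and these lay within the range of 89 to 714 ins reads of the iridophore-gene wells. The 10 wells with members that lay over the mitochondrial limit had at most 378 ins reads. What these wells have in common was not tested.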
